A study of Mus musculus with 4 samples.

Results

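The genes examined were 44 members of the Wnt and β-catenin pathway, picked by gene symbol from the 56748 genes listed in the RNA-seq tables, where every symbol was found. By role they were 11 ligand genes, 12 receptor genes, 8 transducer genes, 4 TCF/LEF factor genes, 6 feedback target genes and 3 genes of secreted inhibitors. The RNA came from E14 cells, a line of mouse embryonic stem cells (mESCs), as 4 libraries. WT1 and WT2 came from wild-type cells, and KO1 and KO2 came from 2 lines of the genotype Npac knockout, 1 library each. Npac, listed as Glyr1, encodes a nucleosome-binding protein. According to the methods, the cells were grown without feeders on gelatin in serum with LIF, and each KO line was a colony picked after CRISPR/Cas9 editing and puromycin selection. Each KO library therefore stood for 1 clone, and whether the WT cells passed through the same selection, and at which passage RNA was taken, are not given in the sources used here. Nothing states that WT1 and WT2 came from separate cultures, so the p-values measure the spread between these samples, which may be technical.

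Wnt ligands are lipid-modified secreted proteins that bind a Frizzled receptor together with Lrp5 or Lrp6. In the absence of a ligand, a complex built on Axin and Apc holds β-catenin for phosphorylation by Gsk3 and for degradation, and receptor binding halts that step. β-catenin then enters the nucleus and joins TCF/LEF factors on target genes, among them Axin2, Sp5, Nkd1, Rnf43 and Znrf3, whose products restrain the pathway in turn. In mESCs β-catenin also sits at cell contacts with E-cadherin, Tcf7l1 is known mainly as a repressor of pluripotency genes, and Wnt activity is known to favour self-renewal.

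WT1 held 15850805 counted reads and WT2 held 16568283, while KO1 held 16233971 and KO2 held 16965120. The knocked-out gene, Glyr1, had 3961 and 3115 reads in WT cells against 744 and 888 reads in KO cells, which is a log2 fold change of -2.14 ± 0.23 (SE, adjusted p = 0.00174). Pou5f1, a defining gene of mESCs, had 12823 and 12022 reads in WT cells and 9325 and 9315 reads in KO cells, so all libraries carried the mark of the labelled cell type. The WT libraries stood further apart than the KO libraries, over all genes as well as for the Wnt genes. Of the 42 members that passed the filter on low counts, 8 were over 2-fold lower in WT1 than in WT2 and 3 were over 2-fold higher, against 10.3% and 6.26% of all genes tested. The 8 were Wnt3, Wnt3a, Wnt4, Wnt7a, Wnt7b, Sp5, Nkd1 and Rnf43, and the 3 were Wnt11, Tcf7l1 and Apc. Between KO1 and KO2, 3 members (Wnt3, Wnt7a and Wnt11) were over 2-fold apart, against 7.75% of all genes tested. Genes of chromosomes 8 and 11 as groups were also higher in both KO libraries, with a median log2 difference from WT on chromosome 8 of 0.48 in KO1 and 0.49 in KO2, and on chromosome 11 of 0.48 and 0.45. Of the tested members, 10 lie on these chromosomes (Wnt3, Wnt3a, Fzd2, Dvl2, Tcf7, Axin2, Rnf43 and Znrf3 on chromosome 11, Nkd1 and Sfrp1 on chromosome 8), and their values were also computed with each chromosome's median removed. Under that setting Wnt3a and Dvl2, which were not called, changed from 0.21 to -0.25 and from 0.14 to -0.33 on the log2 scale.

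TCF/LEF factors bind a short DNA motif, searched for here as CTTTGAT or its reverse complement ATCAAAG in the 250 bases before the transcription start (RefSeq, mouse build GRCm38.p6). A promoter entry was found for 31 of the 44 members. The motif was present before the start of 3 of them (9.68%), Sp5, Wnt5b and Wnt11, and of 1005 of all 27025 genes with an entry (3.72%). These 3 promoters are shown because they belong to a feedback target and to ligand genes described below, with the motif in capitals. The Sp5 window is chr2:70474673-70474922 on the plus strand, with the motif 104 to 98 bases before the start. The Wnt5b window, 1 of 3 entries for that gene, is chr6:119449387-119449636 on the minus strand, with the motif 71 to 65 bases before the start. The Wnt11 window, 1 of 2 entries, is chr7:98834862-98835111 on the plus strand, with the motif on the opposite strand 51 to 45 bases before the start.
Sp5: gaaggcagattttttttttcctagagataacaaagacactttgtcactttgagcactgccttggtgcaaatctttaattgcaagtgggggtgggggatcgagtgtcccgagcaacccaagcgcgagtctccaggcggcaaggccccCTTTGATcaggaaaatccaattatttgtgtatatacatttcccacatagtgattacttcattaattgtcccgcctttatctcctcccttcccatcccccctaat
Wnt5b: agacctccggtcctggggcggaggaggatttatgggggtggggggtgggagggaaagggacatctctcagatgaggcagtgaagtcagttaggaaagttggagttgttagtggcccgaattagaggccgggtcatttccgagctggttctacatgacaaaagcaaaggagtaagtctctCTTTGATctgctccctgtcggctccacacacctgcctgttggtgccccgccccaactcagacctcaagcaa
Wnt11: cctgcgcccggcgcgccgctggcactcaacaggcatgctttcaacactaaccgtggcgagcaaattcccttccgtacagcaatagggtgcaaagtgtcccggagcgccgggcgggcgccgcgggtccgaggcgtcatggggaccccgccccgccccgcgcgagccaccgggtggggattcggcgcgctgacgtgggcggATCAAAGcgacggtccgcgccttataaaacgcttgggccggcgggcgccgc
A match describes the letters of the window and is not evidence of binding, and the same window of Axin2 held no match.

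To learn which parts of the pathway differed between genotypes, KO and WT libraries were compared over 18157 genes by the quasi-likelihood test of edgeR, with p-values adjusted by the Benjamini-Hochberg method. A gene was called when its adjusted p lay under 0.05 and its fold change exceeded 1.5. Of the 42 members tested, 5 rose in Npac KO cells (Wnt5b, Fzd2, Tcf7, Lef1 and Axin2; 11.9%, against 11% of all genes) and 6 fell (Wnt6, Wnt11, Fzd5, Ctnnb1, Tcf7l1 and Tcf7l2; 14.3%, against 10.7% of all genes). Both shares lay near the background, and the median log2 fold change of the tested members was 0.02. The called genes were spread over the roles, with 2 of the 4 TCF/LEF factors on each side and a member of each direction among the ligands and the receptors, and none among the secreted inhibitors. Each KO library was above each WT library for 14 members (33.2% of all genes) and below for 12 (32.5% of all genes). In 16 members the genotypes overlapped. All 11 calls remained when the chromosome medians were removed, a setting under which 9.34% of all genes were higher and 9.78% lower. The number of higher members changed with the WT library left out, as did that of all genes. Without WT2, 15 members were higher (18.7% of all genes), and without WT1, 6 were (14.35% of all genes).

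**Figure D1:**
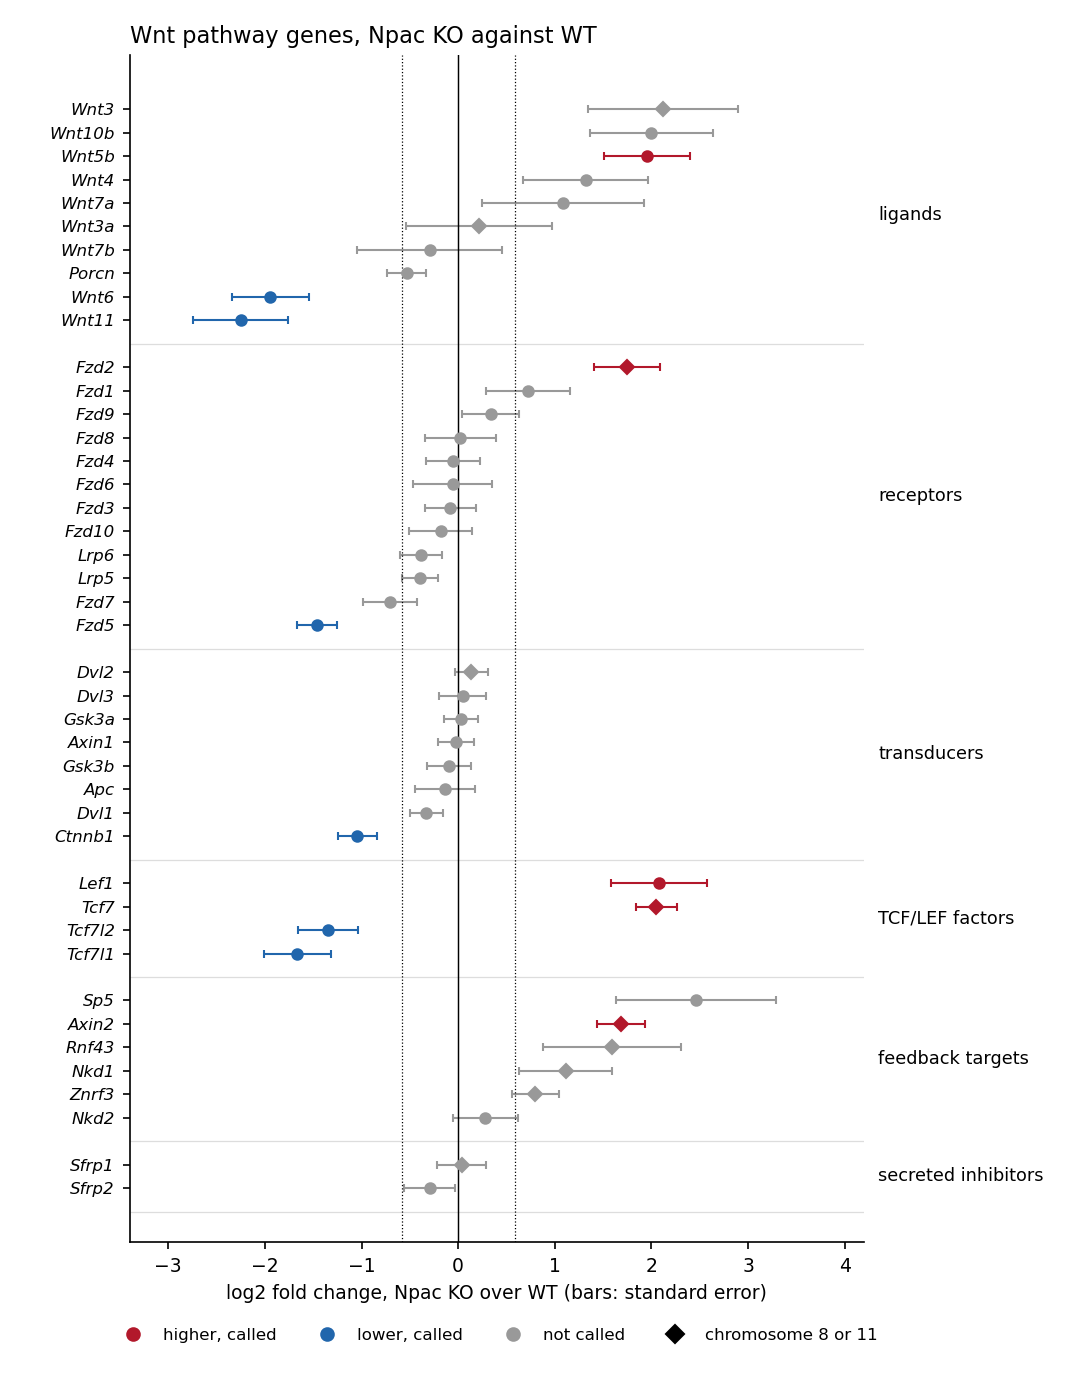
Log2 fold change of Npac KO over WT (x axis) for the 42 tested Wnt pathway genes, grouped by role, with bars for the standard error, colour for the call and diamonds for genes of chromosomes 8 and 11; dotted lines mark a fold change of 1.5. The 5 higher genes lie between 1.68 and 2.08, the 6 lower genes between -2.25 and -1.04, and the TCF/LEF factors fall on both sides.

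Among the ligand genes Wnt6 and Wnt11 fell and Wnt5b rose. Wnt6 had the highest FPKM of the Wnt genes in both WT libraries. Its TMM-normalized count was 10.7 CPM in WT1, 16.8 CPM in WT2, 2.70 CPM in KO1 and 4.45 CPM in KO2. The KO libraries were both under the WT libraries, with a log2 fold change of -1.94 ± 0.40 (SE, adjusted p = 0.015). Wnt11, a ligand known mostly for signalling without β-catenin, was at 18.0 CPM in WT1, 8.93 CPM in WT2, 1.87 CPM in KO1 and 3.76 CPM in KO2. Its log2 fold change was -2.25 ± 0.49 (SE, adjusted p = 0.0182), although WT1 and WT2 themselves differed by over 2-fold, as did the KO lines. Wnt5b, another ligand of the β-catenin-independent branch, was at 1.90 CPM in WT1, 1.72 CPM in WT2, 8.88 CPM in KO1 and 5.14 CPM in KO2. It was higher in both KO lines, with a log2 fold change of 1.95 ± 0.44 (SE, adjusted p = 0.0207). Wnt5b overlaps Fbxl14 on the opposite strand, and whether the counting used strand is not given in the sources used here. The reads of Fbxl14 were not higher in KO cells, at 856 and 873 in WT cells and 721 and 781 in KO cells. With KO1 left out, none of these 3 genes remained called, at log2 fold changes of -1.64 for Wnt6, -1.84 for Wnt11 and 1.5 for Wnt5b.

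On the FPKM scale, which allows levels to be compared between genes, the summed level of the 10 Wnt genes was 10.8 in WT1 and 14.96 in WT2, and 8.79 in KO1 and 9.48 in KO2. Wnt6 made up 45.3% and 50.9% of that sum in WT cells, and 13.98% and 21.03% in KO cells. Wnt5b made up 6.61% and 4.29% in WT cells and was the largest share in KO1, at 37.9%, with 20.1% in KO2. Over all 19 Wnt genes listed, the other 9 of which are not among the members, the sum was 13.1 FPKM in WT1 and 18.8 in WT2, and 13.2 in KO1 and 15.6 in KO2, so that the genotypes overlapped.

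Other ligand genes had few reads. Wnt3, a canonical ligand, had 3 reads in WT1 and 14 in WT2, and 19 in KO1 and 56 in KO2 (log2 fold change 2.12 ± 0.78, SE, adjusted p = 0.0869). Wnt10b had 4 and 9 reads in WT cells and 18 and 35 reads in KO cells (log2 fold change 2.001 ± 0.63, SE, adjusted p = 0.058). Wnt4 had 8 and 36 reads in WT cells and 44 and 64 reads in KO cells (log2 fold change 1.32 ± 0.64, SE, adjusted p = 0.177). In these 3 genes the KO libraries were above the WT libraries but the adjusted p missed the threshold, and in Wnt3 and Wnt4 WT1 was over 2-fold below WT2. Without WT1 the log2 fold change of Wnt3 was 1.45 and that of Wnt4 0.64, and without WT2 they were 3.46 and 2.62. With the median of chromosome 11 removed, Wnt3 was at 1.67. Wnt3a, Wnt7a and Wnt7b overlapped between genotypes, with Wnt7b at 27 reads in WT1 and 210 in WT2. The sign of Wnt7b turned with the WT library left out, at -1.12 without WT1 and 1.66 without WT2. That of Wnt3a turned likewise, at -0.56 and 1.96. Wnt5a, at 6, 8, 13 and 6 reads in WT1, WT2, KO1 and KO2, did not pass the filter. Porcn, the enzyme that attaches the lipid to Wnt proteins, was at 38.4 and 38.2 CPM in WT cells and 28.2 and 24.7 CPM in KO cells, with a log2 fold change of -0.53 ± 0.20 (SE, adjusted p = 0.0935).

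**Figure D2:**
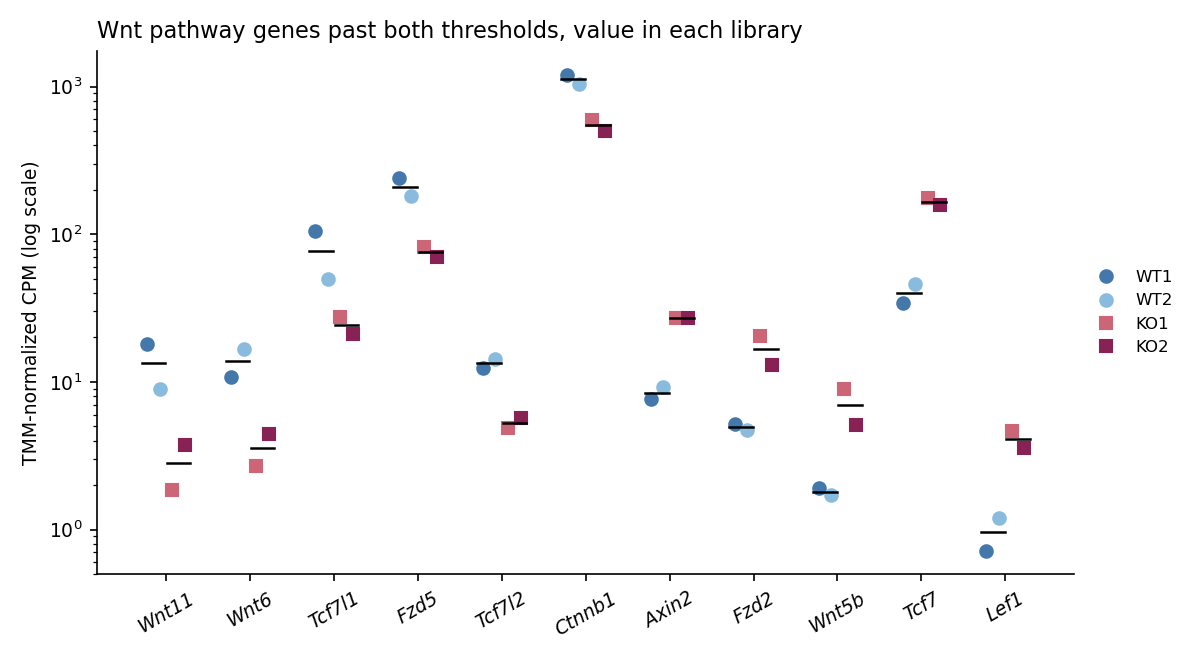
TMM-normalized CPM on a log scale (y axis) of the 11 called Wnt pathway genes in each library, with circles for WT, squares for KO and a bar for the mean of each genotype. The KO libraries lie below the WT libraries for the 6 genes on the left and above them for the 5 genes on the right, and WT1 and WT2 stand apart most for Tcf7l1 and Wnt11.

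Of the 12 receptor genes, Fzd5 fell and Fzd2 rose, and the other 10 were not called. Fzd5, a Frizzled receptor, was at 240 CPM in WT1, 181 CPM in WT2, 82.4 CPM in KO1 and 70.3 CPM in KO2. The KO libraries thus held 36.3% of the WT mean, with a log2 fold change of -1.46 ± 0.21 (SE, adjusted p = 0.00476), and the values stayed between -1.65 and -1.27 with each library left out. Fzd2 was at 5.17 CPM in WT1, 4.75 CPM in WT2, 20.3 CPM in KO1 and 13.1 CPM in KO2. It was higher in both KO lines, with a log2 fold change of 1.75 ± 0.34 (SE, adjusted p = 0.0122), which was 1.28 with the median of chromosome 11 removed. With KO1 left out, Fzd2 was at 1.39 and no longer called.

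The Frizzled genes as a family had a summed FPKM of 76.3 in WT1 and 56.8 in WT2, and 49.3 in KO1 and 40.2 in KO2. Fzd5 accounted for 45.1% and 45.7% of the sum in WT cells and for 24.1% and 24.8% in KO cells. Fzd2 accounted for 1.84% and 2.26% in WT cells and for 11.2% and 8.71% in KO cells. Fzd7, the second most abundant Frizzled gene of WT cells, kept a share of 21.2% to 27.8% in the 4 libraries. Its own level was 97.0 CPM in WT1, 55.1 CPM in WT2, 49.5 CPM in KO1 and 43.7 CPM in KO2 (log2 fold change -0.71 ± 0.28, SE, adjusted p = 0.104), where WT2 lay close to the KO libraries. Fzd1 was at 1.83 and 2.12 CPM in WT cells and 3.47 and 3.06 CPM in KO cells (log2 fold change 0.72 ± 0.43, SE, adjusted p = 0.263). The co-receptor genes Lrp5 and Lrp6 were below WT in both KO libraries, with log2 fold changes of -0.40 and -0.39 and adjusted p of 0.158 and 0.229. Fzd3, Fzd4, Fzd6, Fzd8, Fzd9 and Fzd10 overlapped between genotypes, and their log2 fold changes ran from -0.18 to 0.34.

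Among the 8 transducer genes, Ctnnb1 fell and the other 7 were not called, and none was higher by edgeR's adjusted test, at an unadjusted p under 0.05 (0 genes) or by DESeq2 (0 genes). Ctnnb1, which encodes β-catenin itself, was at 1207 CPM in WT1, 1047 CPM in WT2, 597 CPM in KO1 and 497 CPM in KO2. The KO mean was 48.5% of the WT mean, with a log2 fold change of -1.04 ± 0.20 (SE, adjusted p = 0.012), and -0.85 with the median of chromosome 9 removed. The call was lost with KO2 left out, at a log2 fold change of -0.90. With 18430 and 18300 reads in WT cells and 9286 and 8595 reads in KO cells, Ctnnb1 had more reads than any other member in each library. On the FPKM scale it was 231 in WT1 and 200 in WT2, and 115 in KO1 and 93.9 in KO2, which is 66.9%, 65.2%, 51.8% and 46.4% of the summed level of the transducers.

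The 7 genes of the machinery around β-catenin had log2 fold changes from -0.33 to 0.14. Axin1, the scaffold of the destruction complex, was at 87.0 and 104 CPM in WT cells and 90.8 and 97.8 CPM in KO cells. Gsk3a and Gsk3b, the kinases that mark β-catenin, had log2 fold changes of 0.03 and -0.10, and Apc had -0.13, with 164 CPM in WT1 and 80.1 CPM in WT2 on either side of the KO values of 115 and 107 CPM. For the Dishevelled genes, which relay the signal from the receptor, the log2 fold changes were -0.33 for Dvl1, 0.14 for Dvl2 and 0.05 for Dvl3. The summed FPKM of the Dishevelled genes was 47.2 and 44.9 in WT cells and 44.4 and 44.3 in KO cells.

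All 4 TCF/LEF factors were called, 2 higher (against 11% of all genes) and 2 lower (against 10.7%). Tcf7, also known as Tcf1, was at 34.3 CPM in WT1, 45.9 CPM in WT2, 176 CPM in KO1 and 157 CPM in KO2. It was 4.14-fold higher in KO cells, with a log2 fold change of 2.05 ± 0.21 (SE, adjusted p = 0.00151), or 1.59 with the median of chromosome 11 removed. Lef1, a factor with few reads in mESCs, had 11 reads in WT1 and 21 in WT2, and 72 in KO1 and 62 in KO2. Its log2 fold change was 2.08 ± 0.50 (SE, adjusted p = 0.0243). Tcf7l1, also known as Tcf3, fell from 105 CPM in WT1 and 49.97 CPM in WT2 to 27.6 CPM in KO1 and 21.3 CPM in KO2. Its log2 fold change was -1.66 ± 0.35 (SE, adjusted p = 0.0154), and it remained called without WT1 at -1.06 and without WT2 at -2.11. Tcf7l2, also known as Tcf4, was at 12.4 CPM in WT1, 14.4 CPM in WT2, 4.89 CPM in KO1 and 5.66 CPM in KO2, with a log2 fold change of -1.34 ± 0.31 (SE, adjusted p = 0.0216). The genotypes did not overlap for any of the factors. Lef1 and Tcf7l2 were no longer called with either KO library left out, with Lef1 at 1.87 without KO1 and 2.27 without KO2, and Tcf7l2 at -1.25 and -1.44. On FPKM with limma-trend Tcf7l2 was not called, and Lef1, with a mean under the minimum of 0.5 FPKM, was not tested.

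By FPKM the family was led by Tcf7l1 in WT1 and by Tcf7 in the other libraries. Tcf7 made up 28.7% of the summed FPKM of the factors in WT1 and 51.2% in WT2, and 87.8% in KO1 and 88.9% in KO2. Tcf7l1 made up 67.6% in WT1 and 42.9% in WT2, and 10.6% in KO1 and 9.28% in KO2. The shares of KO1 and KO2 lay within a narrow range, and those of WT1 and WT2 did not. The summed level was 39.3 FPKM in WT1 and 29.4 in WT2, and 66.1 in KO1 and 57.3 in KO2. Tcf7l2 and Lef1 together were a small part of the sum, with no library above 5.44% for Tcf7l2 or 0.795% for Lef1.

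**Figure D3:**
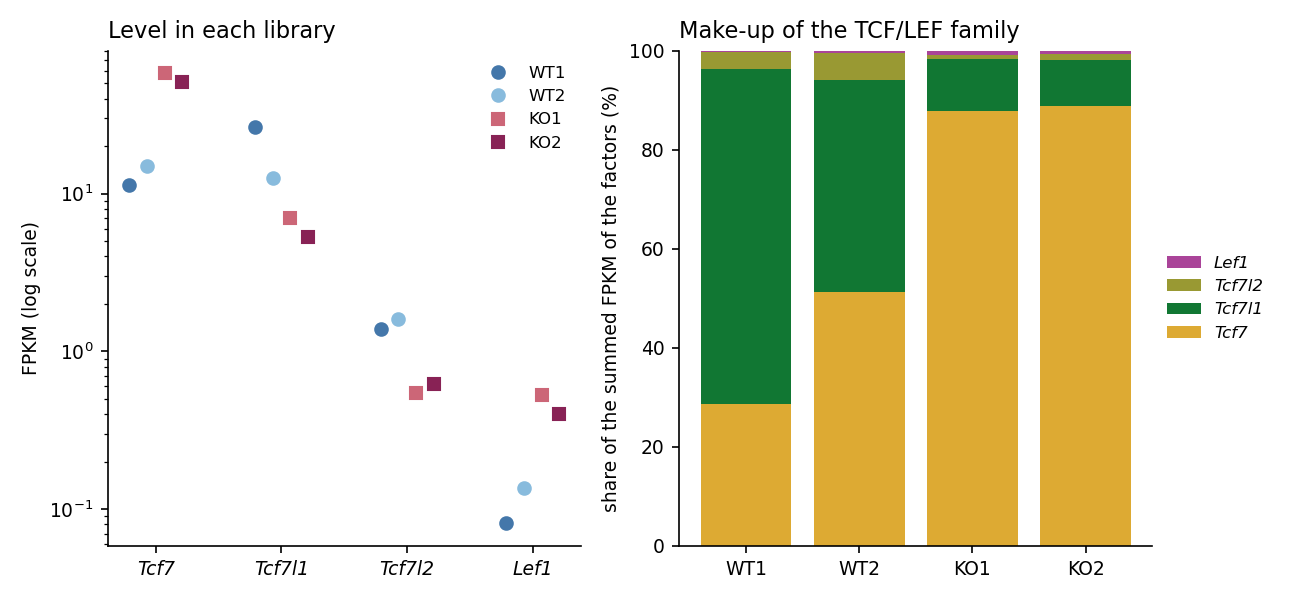
FPKM on a log scale of the TCF/LEF factors in each library (left) and the share of each factor in their summed FPKM (right). Tcf7 and Lef1 are higher and Tcf7l1 and Tcf7l2 lower in both KO libraries, and Tcf7 takes 87.8% and 88.9% of the sum in KO1 and KO2.

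Axin2 was the called member among the 6 feedback targets, and none of them was lower by edgeR's adjusted test, at an unadjusted p under 0.05 (0 genes) or by DESeq2 (0 genes). Axin2, an inducible scaffold of the destruction complex that is widely used as a readout of canonical Wnt activity, was at 7.66 CPM in WT1, 9.21 CPM in WT2, 27.1 CPM in KO1 and 27.2 CPM in KO2. The KO lines were nearly equal and were 3.21-fold above WT, with a log2 fold change of 1.68 ± 0.25 (SE, adjusted p = 0.00523), or 1.22 with the median of chromosome 11 removed. Axin2 remained called with any library left out, between 1.53 and 1.82.

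Of the other feedback targets, 4 were above WT in both KO lines, as were 33.2% of all genes, without passing the adjusted test. At an unadjusted p under 0.05, 3 of the 6 feedback targets were higher (against 3403 of the 18157 genes tested), and DESeq2 called Sp5 and Znrf3 beside Axin2. Sp5, a transcription factor that is a direct target in many tissues and whose promoter is shown above, had 1 read in WT1 and 15 in WT2, and 42 in KO1 and 45 in KO2. Its log2 fold change was 2.46 ± 0.83 (SE, adjusted p = 0.0685), and it was 1.59 with WT1 left out and 5.18 with WT2 left out. Rnf43, which encodes a ubiquitin ligase that removes Frizzled receptors, had 4 reads in WT1 and 24 in WT2, and 45 in KO1 and 37 in KO2 (log2 fold change 1.59 ± 0.72, SE, adjusted p = 0.148), and 1.13 with the median of chromosome 11 removed. Znrf3, its relative of the same function, had 290 and 245 reads in WT cells and 462 and 480 reads in KO cells (log2 fold change 0.80 ± 0.24, SE, adjusted p = 0.0525), and its value was 0.34 with the median of chromosome 11 removed. Nkd1, an inhibitor that binds Dishevelled, had 46 reads in WT1 and 153 in WT2, and 180 in KO1 and 242 in KO2 (log2 fold change 1.11 ± 0.48, SE, adjusted p = 0.137), and 0.63 with the median of chromosome 8 removed. In Sp5, Rnf43 and Nkd1 the gap between WT1 and WT2 exceeded the gap between WT2 and the nearer KO library on the log scale. The log2 fold change of Rnf43 was 0.84 without WT1 and 3.22 without WT2, and that of Nkd1 0.52 and 2.08. Nkd2 overlapped between genotypes, with 152, 317, 239 and 326 reads in WT1, WT2, KO1 and KO2.

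The summed level of the 6 feedback targets was 6.55 FPKM in WT1 and 9.67 in WT2, and 16.1 in KO1 and 16.7 in KO2. Their median log2 fold change was 1.35, against 0.00 for all genes tested, and 0.88 with chromosome medians removed. Of the 6 genes, 4 lie on chromosomes 8 and 11, where 26.5% of the 2434 genes tested were higher in KO cells and 4.56% lower. The part of that shift in the feedback targets was not tested.

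**Figure D4:**
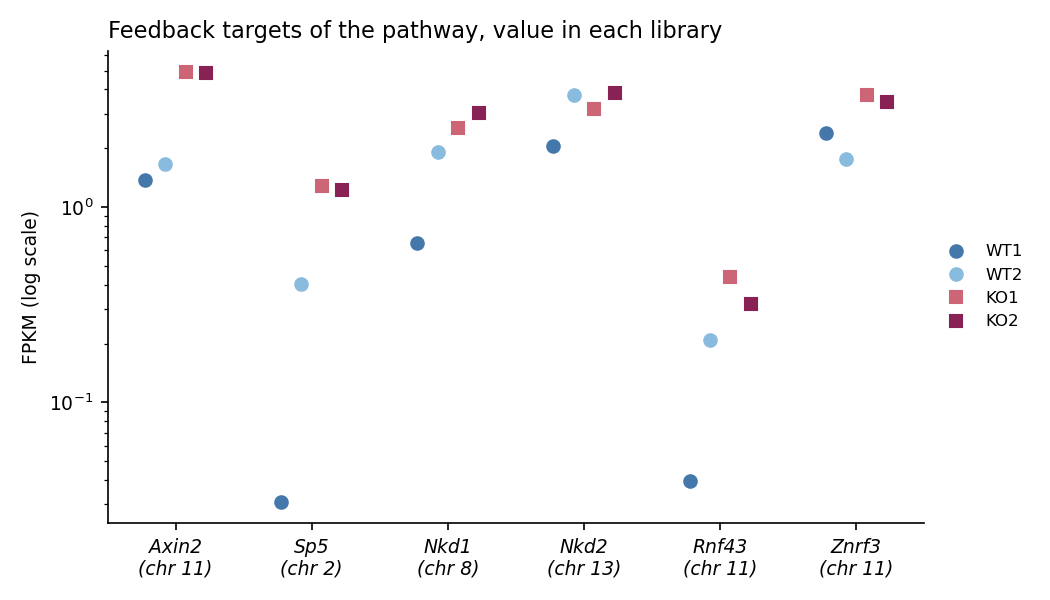
FPKM on a log scale (y axis) of the 6 feedback targets in each library, with the chromosome of each gene under its name. The KO libraries lie above both WT libraries for every gene but Nkd2, and WT1 lies far below WT2 for Sp5 and Rnf43.

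The secreted inhibitors were not called in either direction by edgeR's adjusted test, at an unadjusted p under 0.05 (0 genes) or by DESeq2 (0 genes). Sfrp1, a decoy that binds Wnt proteins, was the most abundant, with 38.1 FPKM in WT1 and 22.8 in WT2, and 32.7 in KO1 and 29.5 in KO2. Its log2 fold change of 0.04 ± 0.25 (SE, adjusted p = 0.936) had no stable sign, since it was -0.45 with the median of chromosome 8 removed. Sfrp2 was at 15.5 and 13.6 CPM in WT cells and 12.1 and 11.6 CPM in KO cells, a log2 fold change of -0.29 (with adjusted p = 0.457). Dkk1, which blocks Lrp5 and Lrp6, had 0, 4, 1 and 9 reads in WT1, WT2, KO1 and KO2 and did not pass the filter.

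The KO lines were also compared with WT one at a time, in a fit with 3 groups whose spread came from the WT pair, so that each result describes a library. Both comparisons use the same WT libraries. In KO1, 4 members were higher (Wnt5b, Fzd2, Tcf7 and Axin2, against 3.83% of all genes) and 2 lower (Wnt11 and Fzd5, against 3.34%). In KO2, 2 members were higher (Tcf7 and Axin2, against 3.1%) and 2 lower (Fzd5 and Tcf7l1, against 2.34%). Tcf7 had a log2 fold change of 2.13 in KO1 and 1.97 in KO2, with adjusted p of 0.00347 and 0.00584. Axin2 had 1.68 in KO1 and 1.68 in KO2, with adjusted p of 0.0356 and 0.0422. Fzd5 had -1.35 in KO1 and -1.58 in KO2, with adjusted p of 0.0423 and 0.0294.

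Beyond the 44 members, 98 other genes of Wnt secretion, reception, transduction and planar polarity were listed, of which 83 were tested. Of these, 10 rose and 10 fell (12.05% each), again near the shares of all genes, and the median log2 fold change was 0.02. Without KO1, 2 of them were called higher and 1 lower, beside 4.399% and 4.26% of all genes. Without KO2, 1 was higher and 1 lower, beside 4.31% and 4.28% of all genes. Of the genes named from this list, Hdac1 alone remained called with each library left out in turn.

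Among other ligands, secretion factors and agonists, 3 of 9 tested genes rose (33.3%, against 11% of all genes) and 1 fell (11.1%, against 10.7%). Wls, the carrier that brings lipid-modified Wnt proteins to the cell surface, had 459 and 302 reads in WT cells and 103 and 163 reads in KO cells, with a log2 fold change of -1.56 ± 0.35 (SE, adjusted p = 0.0197). Rspo1, a secreted agonist that acts through Lgr receptors, had 44 and 80 reads in WT cells and 165 and 206 reads in KO cells, with a log2 fold change of 1.59 ± 0.37 (SE, adjusted p = 0.0218). Both genes had no overlap between genotypes, and they moved in opposite directions. Wnt8a, a canonical ligand of the early embryo, had 0 and 6 reads in WT cells and 33 and 26 reads in KO cells, with a log2 fold change of 3.28 ± 0.92 (SE, adjusted p = 0.0415). That fold change was 2.35 with WT1 left out and 7.86 with WT2 left out, where the remaining WT library had 0 reads. Wnt8b had 2 reads in each WT library, under the floor of 3 reads, and 10 and 14 reads in KO cells. Its mean CPM in KO cells was 3.94 times the mean of that floor over the WT libraries. With KO1 left out none of these 4 genes was called, and with KO2 left out Rspo1 and Wnt8a were not and Wnt8b did not pass the filter on low counts. Wnt8b was also not called by DESeq2 or with either WT library left out.

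Of 14 other receptors and membrane regulators, Kremen1 rose and Adgra2 fell. Kremen1, a receptor for Dkk proteins on chromosome 11, had 542 and 699 reads in WT cells and 921 and 1148 reads in KO cells, with a log2 fold change of 0.73 (with adjusted p = 0.0316) that was 0.27 and not called with the chromosome's median removed. Adgra2, a co-activator of signalling by Wnt7 ligands, had 245 and 355 reads in WT cells and 103 and 159 reads in KO cells, with a log2 fold change of -1.20 (with adjusted p = 0.0294), and was not called with either KO library left out or on FPKM with limma-trend. Its gene overlaps Brf2 on the opposite strand, which had 280 and 251 reads in WT cells and 369 and 369 in KO cells. Lgr4, the receptor through which Rspo1 can act, overlapped between genotypes, at 1013 and 814 reads in WT cells and 1003 and 873 in KO cells. Of 7 other extracellular inhibitors tested, Wif1, which binds Wnt proteins, rose from 5 and 26 reads in WT cells to 63 and 99 reads in KO cells, with a log2 fold change of 2.40 ± 0.67 (SE, adjusted p = 0.0397), and was not called with KO2 left out. Its value was 1.68 without WT1 and 3.87 without WT2. None of these 7 was lower by edgeR's adjusted test or DESeq2 (0 genes), and 1 was lower at an unadjusted p under 0.05.

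Of 22 other genes of the destruction complex and of β-catenin turnover, 3 rose and 3 fell (13.6% each, against 11% and 10.7% of all genes). Dact2, which binds Dishevelled, had 1202 and 923 reads in WT cells and 421 and 391 reads in KO cells, with a log2 fold change of -1.40 ± 0.25 (SE, adjusted p = 0.0092). Amer1, which ties the destruction complex to the membrane, had a log2 fold change of -1.08 (with adjusted p = 0.0407), and -0.59 with WT1 left out. Cby1, a β-catenin antagonist, rose by 0.88 on the log2 scale (adjusted p = 0.034), and Dact3 fell by 0.74 (with adjusted p = 0.0325). Amer1, Cby1 and Dact3 were not called with either KO library left out, nor Dact2 with KO2 left out. The other called genes were Csnk1g1, a kinase of the casein kinase 1 family, and Btrc, the ubiquitin ligase subunit that recognizes phosphorylated β-catenin, which were both higher. Csnk1a1, which primes β-catenin for Gsk3, had 10647 and 8965 reads in WT cells and 5661 and 6796 reads in KO cells, and its adjusted p was 0.0554. It is named here after its values were seen.

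Of 20 other nuclear cofactors, Hdac1 rose (5%, against 11% of all genes) and Pygo2, Tle3, Tle5 and Crebbp fell (20%, against 10.7%). Hdac1, a histone deacetylase found in corepressor complexes, had 2657 and 2882 reads in WT cells and 7726 and 7360 reads in KO cells, with a log2 fold change of 1.44 ± 0.19 (SE, adjusted p = 0.00337). Tle5, a short member of the Groucho family, had 5197 and 9121 reads in WT cells and 3046 and 3987 reads in KO cells, with a log2 fold change of -1.02 ± 0.24 (SE, adjusted p = 0.0242). Crebbp, an acetyltransferase that serves as a coactivator, had -0.96 (with adjusted p = 0.0192), and Tle3, a Groucho corepressor on chromosome 9, had -0.85 (with adjusted p = 0.0338). The genes that fell thus included coactivators and corepressors of TCF/LEF factors. None of the 4 was called with either KO library left out, and Pygo2 and Tle3 were not called with chromosome medians removed. Of 11 planar polarity genes, Celsr1, an atypical cadherin, fell (log2 fold change -0.95, adjusted p = 0.0331) and Ankrd6, a Dishevelled-binding protein, rose (log2 fold change 0.80, adjusted p = 0.048), each without a call when either KO library was left out.

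Other genes known as β-catenin/TCF targets were called on both sides. Of 19 tested, 2 rose (10.5%, against 11% of all genes) and 5 fell (26.3%, against 10.7%), and their median log2 fold change was 0.40. Tnfrsf19, a receptor of the TNF family, had 119 and 129 reads in WT cells and 330 and 403 reads in KO cells, with a log2 fold change of 1.55 ± 0.26 (SE, adjusted p = 0.00763). Ccnd1, which encodes cyclin D1, had 374 and 213 reads in WT cells and 908 and 693 reads in KO cells, with a log2 fold change of 1.43 ± 0.35 (SE, adjusted p = 0.0268). It overlaps LTO1 on the opposite strand, which had 270 and 301 reads in WT cells and 198 and 248 in KO cells. Ccnd1 was no longer called with KO1 left out, nor Tnfrsf19 with KO2 left out. Tbx3, a transcription factor of the naive state, had 7607 and 5230 reads in WT cells and 912 and 1379 reads in KO cells, with a log2 fold change of -2.53 ± 0.29 (SE, adjusted p = 0.00229). Id2, an inhibitor of bHLH factors, had a log2 fold change of -1.68 (with adjusted p = 0.00882), and Jun, Ephb2 and Ephb3 also fell. Jun, Ephb2 and Ephb3 were not called with either KO library left out. Cd44 and Cdx1 were above WT in both KO libraries, with adjusted p of 0.0599 and 0.0601, and Myc was below it, with 0.177.

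Genes known to be repressed by Tcf7l1 in mESCs were listed because Tcf7l1 fell. Of 9 tested, 2 rose (Klf2 and Dppa3) and 4 fell (Tfcp2l1, Nr0b1, Tcl1 and Tbx3, which is also among the targets above), with a median log2 fold change of -0.79. These are 22.2% and 44.4% of a list of only 9 genes, against 11% and 10.7% of all genes, and 1 was higher and 3 lower with chromosome medians removed. Klf2 was not called with either KO library left out, nor Tcl1 with KO2 left out. Dppa3, a gene of germ cells and of naive mESCs, had 19 and 12 reads in WT cells and 528 and 405 reads in KO cells, with a log2 fold change of 4.90 ± 0.41 (SE, adjusted p = 7.04e-04). Nr0b1, an orphan nuclear receptor, had 4345 and 1559 reads in WT cells and 609 and 481 reads in KO cells, with a log2 fold change of -2.48 ± 0.49 (SE, adjusted p = 0.0133), and of -1.44 with WT1 left out. Tfcp2l1, a naive-state factor, had a log2 fold change of -1.24 (with adjusted p = 0.0135). Esrrb and Nanog were not called, with log2 fold changes of -0.79 and -0.21. Klf2 lies on chromosome 8, where its log2 fold change of 0.97 became 0.48 and was not called with the median removed, and Tcl1 was not called under that setting either.

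**Figure D5:**
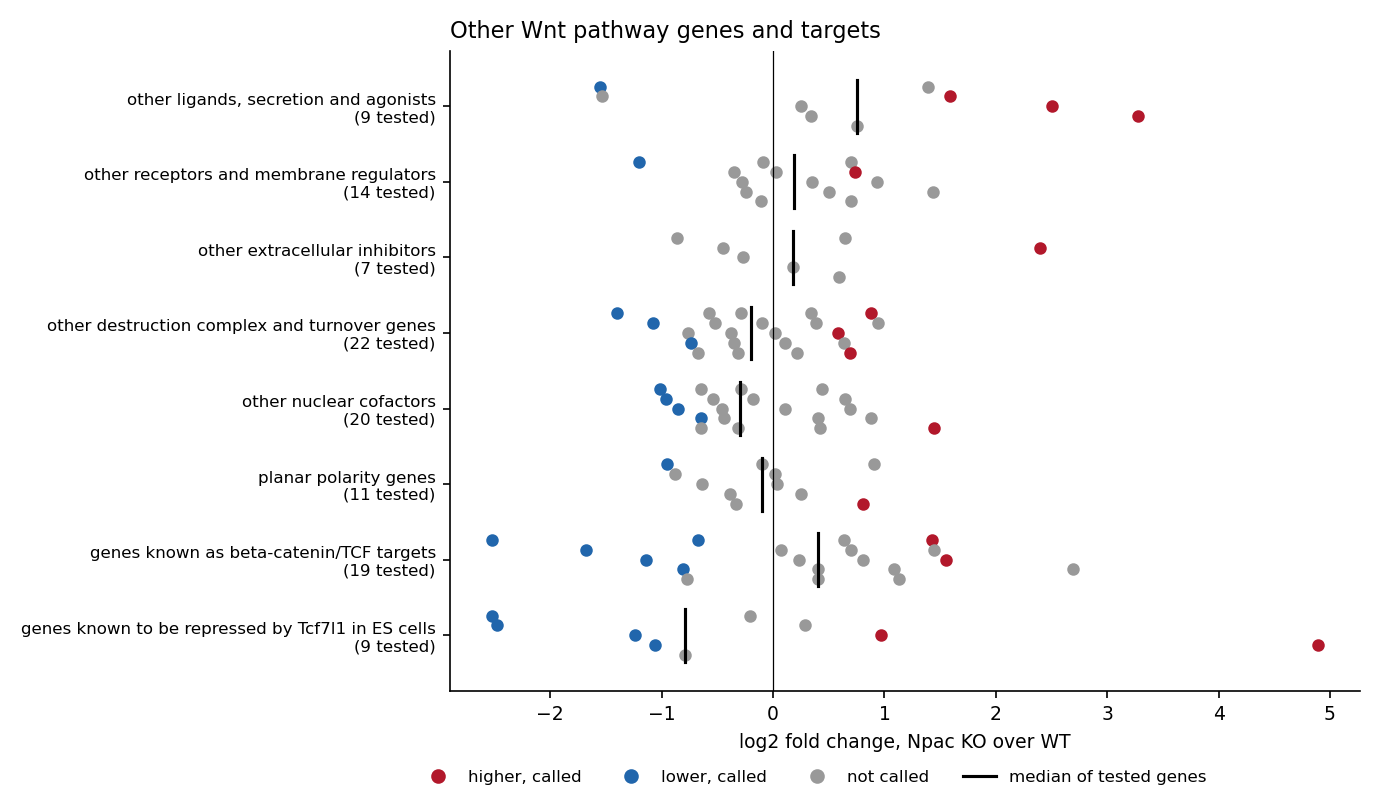
Log2 fold change of Npac KO over WT (x axis) for the tested genes of the wider Wnt pathway and of the target lists, 1 point per gene, coloured by call, with a bar for the median of each list. Most lists hold called genes on both sides, with Wnt8a and Wif1 far to the right among secreted factors. Among targets, Dppa3 lies far to the right, at 4.90, and Tbx3 and Nr0b1 far to the left. The point of Wnt8b is a fitted value against WT libraries under the floor.

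Markers of other cell types were read in the same libraries, since Wnt genes differ between cell types and, in bulk samples, fewer cells of a type and less RNA per cell cannot be told apart. Markers of primitive streak and mesoderm, a fate that canonical Wnt signals are known to promote, had a summed level of 3.49 FPKM in WT1 and 5.01 in WT2, and 7.39 in KO1 and 7.51 in KO2. Of 7 tested, 1 rose (Gsc, with 1 and 7 reads in WT cells and 29 and 42 in KO cells; 14.3%, against 11% of all genes) and none fell by edgeR's adjusted test, at an unadjusted p under 0.05 (0 genes) or by DESeq2 (0 genes). Gsc was not called with KO2 left out. The most abundant gene, Eomes, was not higher, at 137 and 171 reads in WT cells and 161 and 112 reads in KO cells, and T, the gene of Brachyury, had 9, 15, 21 and 21 reads in WT1, WT2, KO1 and KO2. Markers of mESCs summed to 5030, 4191, 4123 and 3939 FPKM. Dppa5a alone gave 2053, 1979, 2436 and 2408 of it, a share of 40.8%, 47.2%, 59.1% and 61.1%. Of the 12 markers, 1 was called higher (Klf2, 8.33%, against 11% of all genes). Called lower were 4 (Zfp42, Klf4, Klf5 and Tfcp2l1, 33.3%, against 10.7%). Called or not, 8 of the 12 were lower in KO cells with no overlap between genotypes, 3 were higher and 1 overlapped. Of all genes, 32.5% were lower and 33.2% higher in that way. Among 8 primitive endoderm markers tested, Lamb1 rose and Sox7 fell (12.5% each, against 11% and 10.7% of all genes). Sox7 had 273 and 162 reads in WT cells and 4 and 16 in KO cells (log2 fold change -4.48). Col4a1, the most abundant in both WT libraries, overlapped between genotypes. The summed FPKM of the primitive endoderm markers was 27.9, 31.2, 40.6 and 36.2, of which Lamb1 alone gave 8.56, 9.15, 25.4 and 18.7. Among 6 trophoblast markers tested, Krt18 rose (16.7%, against 11% of all genes) and none was called lower. Krt18 was not called with either KO library left out. Of the 6, 4 were higher in KO cells with no overlap between genotypes, 1 was lower and 1 overlapped. The lower one, Tfap2a, missed the threshold (log2 fold change -1.38 ± 0.46, SE, adjusted p = 0.0671). Summed FPKM of the 8 trophoblast markers listed was 26.4, 42.6, 60.4 and 59.0. Krt18 gave 11.3, 20.1, 31.9 and 33.0 of it, and Krt8 13.8, 19.5, 25.6 and 22.1. Cdx2 and Elf5 did not pass the filter on low counts. Among the neural markers reported, Sox1 fell, and Tubb3, the most abundant, had 764 and 694 reads in WT cells and 714 and 931 reads in KO cells. Of the fibroblast markers, Col3a1 and Dcn had 0 reads in every library and Lum and Postn at most 1, while Col1a1 rose, with 85 and 168 reads in WT cells and 285 and 326 in KO cells. Col1a1 lies on chromosome 11 and was not called with that chromosome's median removed (log2 fold change 0.82) or with either KO library left out. Col1a2 had 3 and 5 reads in WT cells and 18 and 16 in KO cells (log2 fold change 2.06, adjusted p = 0.0515). Col1a2 was not called, but with chromosome medians removed it was called higher, at 2.17 (adjusted p = 0.0489). Neither fit without a KO library called Col1a2. The summed FPKM of the fibroblast markers was 11.8, 20.8, 12.3 and 14.7, most of it from Thy1. The part of these other marker sets in the values of the Wnt genes was not tested.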

How the data were processed

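RNA-seq of 4 libraries, WT1 and WT2 from WT E14 cells and KO1 and KO2 from Npac KO lines, was analysed. Per the labels' processing notes, CASAVA, HISAT2 2.0.5, featureCounts 1.5.0-p3 and mm10 were used, and strand is not given in the sources used here. Gene starts in the deposited tables matched GENCODE M21 (GRCm38) for only 2.85% of 52073 genes, so coordinates from the tables are not printed. The deposited counts are unnormalized reads for every gene. Beside them the authors gave FPKM, made from these counts, the deposited gene length and a scaled library total, whose divisor was 17622289 reads for both WT2 and KO2.

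The tests were run in R 4.3.3 using edgeR 4.0.16 (TMM scaling, filterByExpr, quasi-likelihood test with Benjamini-Hochberg adjustment over 18157 genes). Thresholds were an adjusted p of 0.05 and a fold change of 1.5, and the common biological coefficient of variation was 0.235. CPM are TMM-normalized. Of 56748 genes listed, 24063 had no reads. Library totals lay between 15850805 and 16965120 counts, and a group with at most 3 reads in each library was taken as at the floor, which covers counting error only. Log2 CPM over 17778 genes correlated at 0.971 between WT1 and WT2 and at 0.987 between KO1 and KO2, and the chi-square per gene was 41.2 and 13.0, so no pair was 1 library under 2 names.

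Named members were all those called, those past the fold change whose genotypes did not overlap, and the most abundant of each role; in the other lists the called genes were named, with values for up to 4 per role. The members and lists were chosen with earlier results of these data known. Alternatives used DESeq2 1.42.0, limma 3.58.1 on log2(FPKM + 0.1), other normalizations, filters and thresholds, a replicate block, the median of each chromosome removed from each KO library, and each library left out. Promoter windows were taken from RefSeq (GRCm38.p6); 13 members without an entry there were Wnt5a, Wnt7b, Porcn, Fzd2, Fzd3, Fzd6, Fzd8, Lrp5, Lrp6, Axin1, Apc, Znrf3 and Sfrp1. Some results on the marker lists are not reported here.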

Additional observations from a re-analysis of the deposited data

Results flagged for a closer look

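For Wnt5a and Fzd4 the KO lines lay on opposite sides of both WT libraries. Wnt5a, a ligand with few reads, had 6 reads in WT1 and 8 in WT2, and 13 in KO1 and 6 in KO2, and the log2 ratio of KO1 to KO2 in CPM was 1.27. Fzd4, a receptor gene, was at 12.8 CPM in WT1, 12.3 CPM in WT2, 10.6 CPM in KO1 and 13.6 CPM in KO2, and its log2 ratio of KO1 to KO2 was -0.36. The difference between the lines was not tested, since each has 1 library.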

How the results depend on the processing

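Of the 11 called members, Axin2, Fzd5, Tcf7 and Tcf7l1 kept their direction and call under all 17 alternative settings. With each library left out in turn, where a genotype left with 1 library is assumed to vary like the other, the number of genes higher in Npac KO ranged from 826 to 3571 and of genes lower in Npac KO from 821 to 3384, the members from 2 to 15 higher and from 3 to 8 lower, and the wider pathway from 1 to 20 higher and from 1 to 19 lower. A replicate block called 3128 genes higher and 2994 lower (17.2% and 16.5% of all genes). With it 12 members were higher and 7 lower, and 17 wider pathway genes were higher. The labels do not say that numbers mark shared cultures (the deviations of same-numbered libraries correlated at 0.340 over 2 pairs). The replicate block added Nkd1, Rnf43, Sp5, Wnt10b, Wnt3, Wnt4 and Znrf3 as higher and Fzd7 as lower, and lost no member. Members higher numbered 9 by edgeR's likelihood ratio test (14.65% of all genes), 11 without a filter on low counts (8.76%) and 9 at an adjusted p of 0.1 (15.4%). Wider pathway genes numbered 3 higher and 3 lower on FPKM with limma-trend (8.12% and 7.73% of all genes), and 5 and 5 at a fold change of 2 (8.01% and 8.22%). Outside the members, Wls, Wnt8a, Wif1, Kremen1, Adgra2, Amer1, Crebbp, Tle3, Celsr1, Ankrd6 and Ccnd1 lost the call on FPKM with limma-trend. In KO1 alone, with at least 10 reads required in every library, 5 members were higher and 4 lower, beside 662 genes higher and 563 genes lower in all. Sfrp1 changed sign, to -0.45 with chromosome medians removed, -0.03 without KO1 and -0.29 without WT2 (0.43 without WT1). The cause of these changes was not tested. DESeq2 called 7 members higher and 6 lower, against 1995 and 2037 of the 18157 genes. With 2 libraries per genotype, and no library above 56 reads for Wnt3, Wnt10b, Sp5 or Rnf43, depth limits what can be said of these genes.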
